A study of Mus musculus with 16 samples.

Results

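The Oscillospiraceae are a family of anaerobic gut bacteria, and the amplicon sequence variants (ASVs) assigned to it were followed here through mouse stool by genotype and colitis. An ASV is 1 exact amplified sequence, and ASVs are numbered by their total reads over all libraries. Members were all ASVs that the deposited taxonomy places in the family Oscillospiraceae, which gave 82 of 1330 ASVs and 40098 of 948231 reads (4.23%). Stool came from wild-type mice (WT) and from mice with the gene Msc knocked out (KO), and was profiled in 16 libraries, 4 groups of 4, each made from a stretch of the bacterial 16S rRNA gene that spans its variable regions 3 and 4. WT healthy and KO healthy libraries carry the time point T0. WT DSS and KO DSS libraries are from mice with colitis induced by DSS (dextran sulfate sodium), which injures the epithelium of the colon, and carry T1. The Msc gene product, musculin, is a transcription factor of the basic helix-loop-helix class, and these data hold no measure of it. The study asked how loss of Msc shifts the microbiota in healthy and colitic mice. The cell types in which Msc was lost, the strain, age and sex of the mice, their cages and the DSS schedule are not given in the sources used here. Colitis and the later time point cannot be told apart, nor can genotype and cage. The labels do not say whether replicates 0 to 3 of each group were separate animals, so p-values measure the spread between these samples. Replicate numbers repeat at both time points, and whether they mark the same mouse is not stated.

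Oscillospiraceae belong to the order Oscillospirales within the class Clostridia. They are strict anaerobes of the large intestine that ferment carbohydrates or amino acids, and several of them make short-chain fatty acids such as butyrate, which colon cells use as fuel. Most members of the family in the mouse gut have not been grown in culture, so many of their sequences carry placeholder names or no genus name. A 16S profile gives shares of reads: a higher share of a family cannot be told apart from fewer bacteria of other families.

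Of the 82 members, 41 had no genus name (28 of them named only "uncultured" and 13 left blank) and are called unclassified Oscillospiraceae. Oscillibacter, which includes valerate producers, had 17 members. Colidextribacter, described from the human colon, had 16. UCG-005 had 3, the NK4A214 group had 2 and UCG-003 had 1, all placeholder names for groups without a cultured type. Intestinimonas, which includes butyrate producers, had 2. By reads, 47.9% of the family was unclassified, 24.4% Colidextribacter, 17% Oscillibacter, 6.86% UCG-005, 1.91% Intestinimonas, 1.70% NK4A214 group and 0.247% UCG-003. The confidence of the taxonomic assignment ran from 0.706 to 1 with a median of 0.921, against 0.988 over all 1330 ASVs, and 50 members had at least 0.9. The family's reads were concentrated, with 5 ASVs holding 44.0% and 8 ASVs holding 54.2% of them.

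Members were found in more libraries than most ASVs of the table. Of the 82, 11 (13.4%) were seen in 1 library only, against 66.4% of all ASVs, and 9 (11%) were seen in all 16, against 3.01%. The share for all ASVs rested largely on WT DSS replicate 1: without that library 14.6% of members and 28.1% of all ASVs were seen once, and 11% and 6.46% in every library. Those 9 held 24.7% of the family's reads. They were 5 Colidextribacter (asv57, asv58, asv70, asv107 and asv129), asv64 and asv82 of UCG-005, asv94 of Oscillibacter and asv133 of the NK4A214 group. None of the 41 unclassified members was seen in all 16 libraries. No value in the family was a single read.

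The libraries held 49253 to 70577 reads, so 3 reads, the most that a count of 0 allows, are 0.00425% to 0.00609% of a library. Such floors, and the bounds written "at least", cover counting error only: reads copied by PCR from 1 molecule are not independent. Replicates spread far beyond counting error: the chi-square per degree of freedom between pairs of libraries of 1 group was 10.1 to 62.2 over the members. WT DSS replicate 1 stood apart in the whole table, with 844 ASVs against 172 to 280 in the other libraries and 17.1% of its reads in ASVs seen nowhere else, but it held only 25 members, the fewest of any library.

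The share of the family was lowest in healthy KO mice and highest in KO mice with DSS. It took 2.54%, 5.65%, 4.04% and 5.02% of the reads in the WT healthy libraries (replicates 0 to 3; mean 4.31% ± 1.36, SD, n = 4). In KO healthy libraries it took 2.75%, 2.21%, 2.06% and 2.78% (2.45% ± 0.369, n = 4). In WT DSS libraries it took 5.17%, 1.83%, 1.96% and 3.10% (3.01% ± 1.54, n = 4). KO DSS libraries had 4.84%, 5.07%, 8.99% and 9.43% (7.08% ± 2.46, n = 4). Each KO DSS library lay above every KO healthy library, while the other pairs of groups overlapped: WT DSS replicate 0 lay above KO DSS replicates 0 and 1, and WT healthy replicate 0 lay among the KO healthy libraries. The 95% Wilson interval of a single library was narrow beside this spread, for example 4.69% to 5.01% in KO DSS replicate 0.

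**Figure D1:**
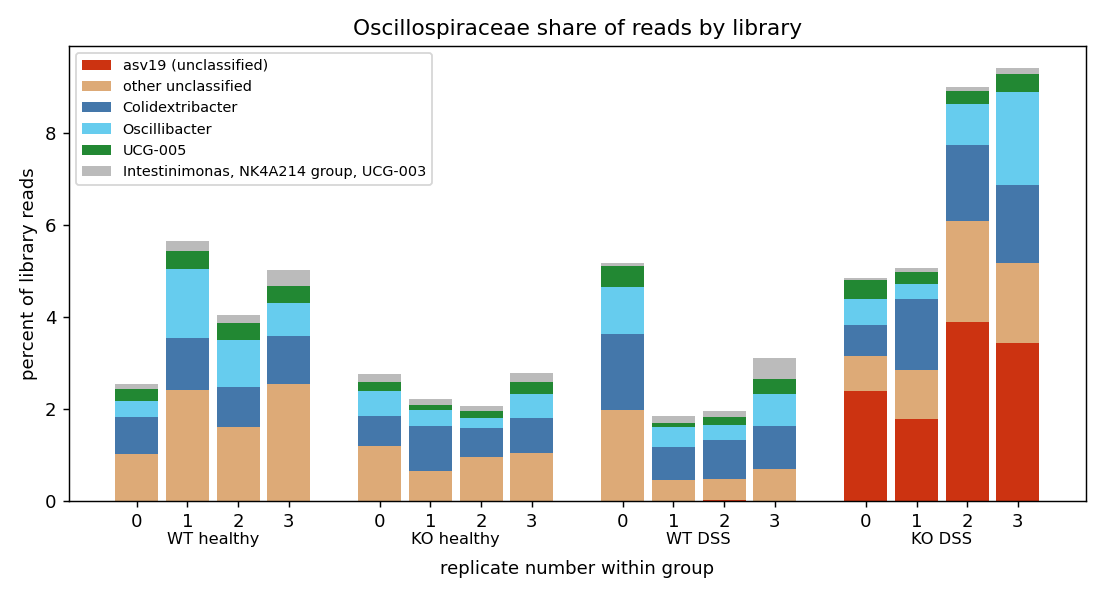
Percent of each library's reads assigned to Oscillospiraceae, stacked by genus label with asv19 drawn apart, for replicates 0 to 3 of the 4 groups. KO DSS bars reach 4.84% to 9.43%, and asv19 fills 1.77% to 3.89% of the reads there and at most 0.00521% in any other library.

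On the log2 scale of percent plus 0.01, the mean share in KO mice was 1.47 higher with DSS than without (a 2.77-fold difference). The two-sided exact permutation test gave p = 0.0286, the smallest that 4 libraries against 4 allow, and 0.114 after adjustment over the 4 comparisons of shares. KO minus WT was 1.29 with DSS (exact permutation p = 0.0857, adjusted p = 0.114) and -0.76 in healthy mice (exact permutation p = 0.0857, adjusted p = 0.114). DSS minus healthy in WT mice was -0.58 (exact permutation p = 0.229, adjusted p = 0.229). None of the 4 differences in share passed 0.05 after adjustment.

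A quasi-likelihood fit over all 26 families with enough reads, which scales libraries by TMM factors instead of by their totals, placed the family in 2 of 5 comparisons past an adjusted p of 0.05. With DSS, the KO minus WT log2 fold change was 1.33 ± 0.39 (standard error; adjusted p = 0.0345), where 11.5% of all families passed. In KO mice, DSS minus healthy was 1.12 ± 0.39 (adjusted p = 0.0212), where 50% of all families passed and the median family itself moved by 0.76. In healthy mice KO minus WT was -0.12 (adjusted p = 0.876; 11.5% of families passed), and in WT mice DSS minus healthy was -0.33 (adjusted p = 0.533; 26.9% passed). The interaction, the KO minus WT difference with DSS minus that in healthy mice, was 1.44 ± 0.55 (adjusted p = 0.0894; 15.4% passed).

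Both calls were lost when single libraries were left out. The KO minus WT call with DSS was lost without WT DSS replicate 1 (0.96, adjusted p = 0.123), replicate 2 (0.92, adjusted p = 0.158) or replicate 3 (1.32, adjusted p = 0.108). It was also lost without KO DSS replicate 1 (1.12, adjusted p = 0.143), replicate 2 (1.08, adjusted p = 0.109) or replicate 3 (1.0, adjusted p = 0.119). The DSS call in KO mice was lost without KO healthy replicate 3 (0.91, adjusted p = 0.0681), KO DSS replicate 2 (0.87, adjusted p = 0.0797) or KO DSS replicate 3 (0.79, adjusted p = 0.101). With library totals alone in the fit, KO minus WT in healthy mice was -0.82 rather than -0.12, while the median family stood at -0.55 rather than 0.15. Without KO healthy replicate 0, 1 or 2, KO minus WT in healthy mice was -1.0, -0.93 or -1.08 (adjusted p = 0.114, 0.170 and 0.143). The value near 0 was thus not kept without any 1 of these libraries. The log2 difference in share, which uses library totals, was -0.82, -0.72 or -0.68 without the same libraries, against -0.76 with all. The interaction passed with library totals (2.00, adjusted p = 0.0101). It also passed without KO healthy replicate 0 (2.17, adjusted p = 0.0193), replicate 1 (2.10, adjusted p = 0.0276) or replicate 2 (2.25, adjusted p = 0.0207).

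Much of the KO DSS share was 1 sequence. The most abundant member, asv19, an unclassified ASV assigned to the family with a confidence of 0.973, was unread in all 8 healthy libraries and had 3 reads in 1 WT DSS library, replicate 2. In KO DSS it had 1687, 1035, 2158 and 2072 reads. This was 2.39%, 1.77%, 3.89% and 3.42% of the libraries' reads and 49.3%, 35%, 43.3% and 36.3% of their Oscillospiraceae reads. The KO DSS libraries thus stood apart from the other 12 without overlap, and asv19 was at least 526-fold higher there than in KO healthy libraries. Against the 3 reads of WT DSS the ratio was 2301, with a 95% counting interval of 787 to 11160. It was past the threshold in the fit over 308 ASVs for KO minus WT with DSS and for DSS minus healthy in KO mice. These calls are no independent support, because asv19 met the minimum of reads for testing only through the KO DSS libraries in which it is high. An interaction could not be fitted for a sequence unread in both healthy groups.

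With asv19 left out, a choice made after its values were seen, the KO DSS share was 2.45%, 3.29%, 5.10% and 6.0% (4.21% ± 1.63, n = 4). It then overlapped the shares of the WT healthy and WT DSS groups, and KO DSS replicate 0 lay below 2 of the KO healthy libraries. The log2 difference in share between KO DSS and KO healthy was then 0.75 (exact permutation p = 0.0857, adjusted p = 0.171), and between KO DSS and WT DSS 0.57 (exact permutation p = 0.257, adjusted p = 0.257). In the family fit the log2 fold changes became 0.37 (adjusted p = 0.501) and 0.44 (adjusted p = 0.561), and neither passed.

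**Figure D2:**
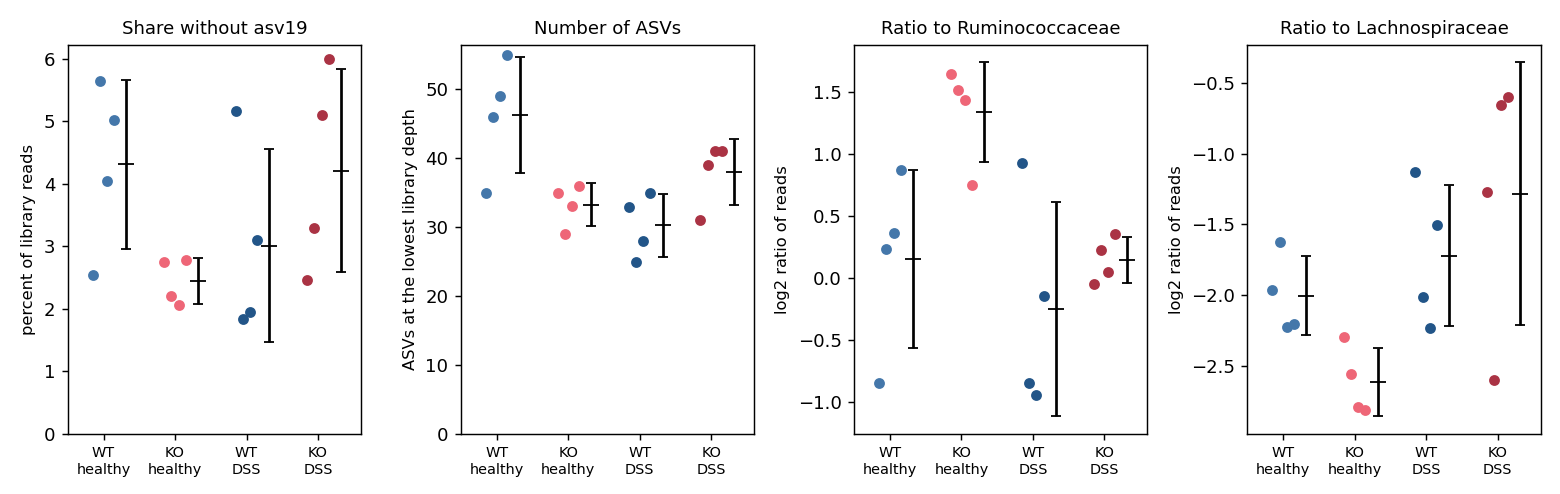
Each point is 1 library: from left to right the Oscillospiraceae share without asv19 (percent of reads), the number of member ASVs expected at the lowest library depth, and the log2 ratio of Oscillospiraceae reads to Ruminococcaceae and to Lachnospiraceae reads, with mean ± SD of 4 libraries beside the points. Without asv19 the KO DSS shares run from 2.45% to 6.0% and overlap every other group.

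Among the genus labels, the unclassified members set the pattern. They took 1.02%, 2.42%, 1.61% and 2.53% of reads in WT healthy libraries, 1.19%, 0.647%, 0.941% and 1.03% in KO healthy, 1.98%, 0.439%, 0.461% and 0.690% in WT DSS, and 3.15%, 2.85%, 6.08% and 5.17% in KO DSS. All 4 KO DSS libraries lay above the other 12. Of the 66 genus labels with enough reads, 6 belonged to the family, and unclassified Oscillospiraceae was the only 1 of these to pass in any comparison. Its log2 fold change was 2.02 ± 0.52 for KO minus WT with DSS (adjusted p = 0.0181; 13.6% of all labels passed) and 2.20 ± 0.53 for DSS minus healthy in KO mice (adjusted p = 0.00402; 34.8% passed). The interaction was 2.67 ± 0.72 (adjusted p = 0.0420; 4.55% passed). No label of the family passed for KO minus WT in healthy mice (6.06% of all labels did), nor for DSS minus healthy in WT mice (22.7% did). DESeq2 also gave 0 in both, while edgeR with library totals alone gave 1 label for DSS minus healthy in WT mice. With TMM factors none of the 6 had an unadjusted edgeR p under 0.05 in either comparison.

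These label-level calls were carried by asv19. The other 40 unclassified members took 0.761%, 1.08%, 2.19% and 1.75% of reads in KO DSS libraries (1.44% ± 0.645, n = 4), against 1.89% ± 0.715 in WT healthy, 0.950% ± 0.226 in KO healthy and 0.891% ± 0.734 in WT DSS libraries. Without asv19 the fit gave 0.82 for KO minus WT with DSS (adjusted p = 0.244), 0.48 for DSS minus healthy in KO mice (adjusted p = 0.426) and 1.21 for the interaction (adjusted p = 0.268). With asv19 kept, the KO minus WT call with DSS was lost without WT DSS replicate 2 (1.84, adjusted p = 0.0574). The interaction was lost without WT healthy replicate 3 (2.61, adjusted p = 0.0860), KO healthy replicate 1 (2.55, adjusted p = 0.0813), 2 (2.73, adjusted p = 0.0557) or 3 (2.62, adjusted p = 0.0723), or WT DSS replicate 1 (2.41, adjusted p = 0.0543) or 2 (2.50, adjusted p = 0.112).

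No named genus passed in the fit, although some ranges did not meet. Colidextribacter took 0.955% ± 0.155 of reads in WT healthy, 0.760% ± 0.159 in KO healthy, 1.04% ± 0.414 in WT DSS and 1.39% ± 0.485 in KO DSS libraries (n = 4 each). Its log2 fold change for DSS minus healthy was 0.74 ± 0.45 in WT mice (adjusted p = 0.250) and 0.87 ± 0.45 in KO mice (adjusted p = 0.131). KO DSS replicate 0, with 0.669%, lay apart from the 1.54% to 1.70% of the other KO DSS libraries. Oscillibacter took 0.902% ± 0.488, 0.408% ± 0.152, 0.617% ± 0.302 and 0.951% ± 0.745 in the same order of groups (n = 4 each). For DSS minus healthy in KO mice its log2 fold change was 1.25 ± 0.63 (adjusted p = 0.125). The high KO DSS mean came partly from replicate 3, with 2.01% against 0.322% to 0.895% in the others. In that library 669 reads came from asv92, an Oscillibacter singled out after its values were seen, which had 182, 38 and 0 reads in KO DSS replicates 0 to 2 and none in WT DSS.

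UCG-005 took 0.278% to 0.390% of reads in WT healthy libraries. It took 0.0905% to 0.266% in KO healthy, 0.0956% to 0.463% in WT DSS and 0.262% to 0.414% in KO DSS libraries. The WT healthy and KO healthy ranges did not meet, yet the scaled log2 fold change was -0.69 ± 0.55 (adjusted p = 0.471). The NK4A214 group had 0.0702% to 0.202% in WT healthy, 0.0576% to 0.0726% in KO healthy, 0.0307% to 0.0602% in WT DSS and 0.0368% to 0.0704% in KO DSS libraries, and its log2 fold changes lay between -0.75 and 0.02 in the 4 pairwise comparisons. Its WT DSS libraries all lay below the WT healthy ones, which the fit did not call (-0.75 ± 0.49, adjusted p = 0.259). UCG-003 was 1 ASV, asv318, read in 3 of 4 WT healthy libraries (19, 35 and 45 reads) and in no other library. It had too few libraries to be tested, and its WT healthy mean was at least 7.82-fold above KO healthy and at least 8.61-fold above WT DSS.

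Intestinimonas was read in 3 of 4 WT healthy, 4 of 4 KO healthy, 4 of 4 WT DSS and 2 of 4 KO DSS libraries. Its mean was 0.15% ± 0.159 in WT DSS and 0.0297% ± 0.0392 in KO DSS libraries (n = 4 each; log2 fold change -2.75 ± 1.38, adjusted p = 0.171). Its 2 ASVs, described after their values were seen, did not share a library. The first, asv140, was read in 11 libraries across all groups, with 10 and 52 reads in WT DSS replicates 0 and 2. The other, asv172, was read only in WT DSS replicates 1 and 3, with 67 and 253 reads, where asv140 had none.

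Single ASVs were tested where at least 4 libraries had at least 5 reads. This kept 50 members with 95.9% of the family's reads and left out 32, so the counts below cover the 50. Of these, asv19 and asv342 met the minimum only through the 1 group where they are high, as did 18 of the 308 ASVs (5.84%), and the counts include their calls. In healthy mice 1 of 50 passed for KO minus WT, lower in KO (2% of the members; 3.9% of all 308 ASVs were lower and 3.25% higher). With DSS 3 passed for KO minus WT, all higher in KO (6%; 8.77% of all ASVs higher, 6.17% lower). For DSS minus healthy, 4 members fell and 1 rose in WT mice (8% and 2%; 12.7% of all ASVs lower, 4.55% higher), and 2 fell and 3 rose in KO mice (4% and 6%; 17.9% lower, 11% higher). In the interaction 1 passed, upward (2%; 3.25% of all ASVs higher, 2.27% lower). In each comparison the members passed no more often than the table at large. The comparisons share groups, so an ASV that passes in several is not independent evidence in each.

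The fitted values of the 50 are described here without a test, and their signs were not counted over all 308 ASVs. Between healthy KO and WT mice 36 of 50 had a log2 fold change below 0, with a median of -0.69 against -0.14 over all 308 ASVs. With DSS, 33 were above 0 and 16 below for KO minus WT, with a median of 0.32 against 0. For DSS minus healthy the median was -0.35 in WT mice (-0.54 over all ASVs) and 0.51 in KO mice (0 over all ASVs). Setting members unread in 1 group at their bound, on shares, gave medians of -0.64, 0.32, -0.35 and 0.50 in the same order. The healthy median kept its sign under the other scalings tried, from -0.66 to -1.04.

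**Figure D3:**
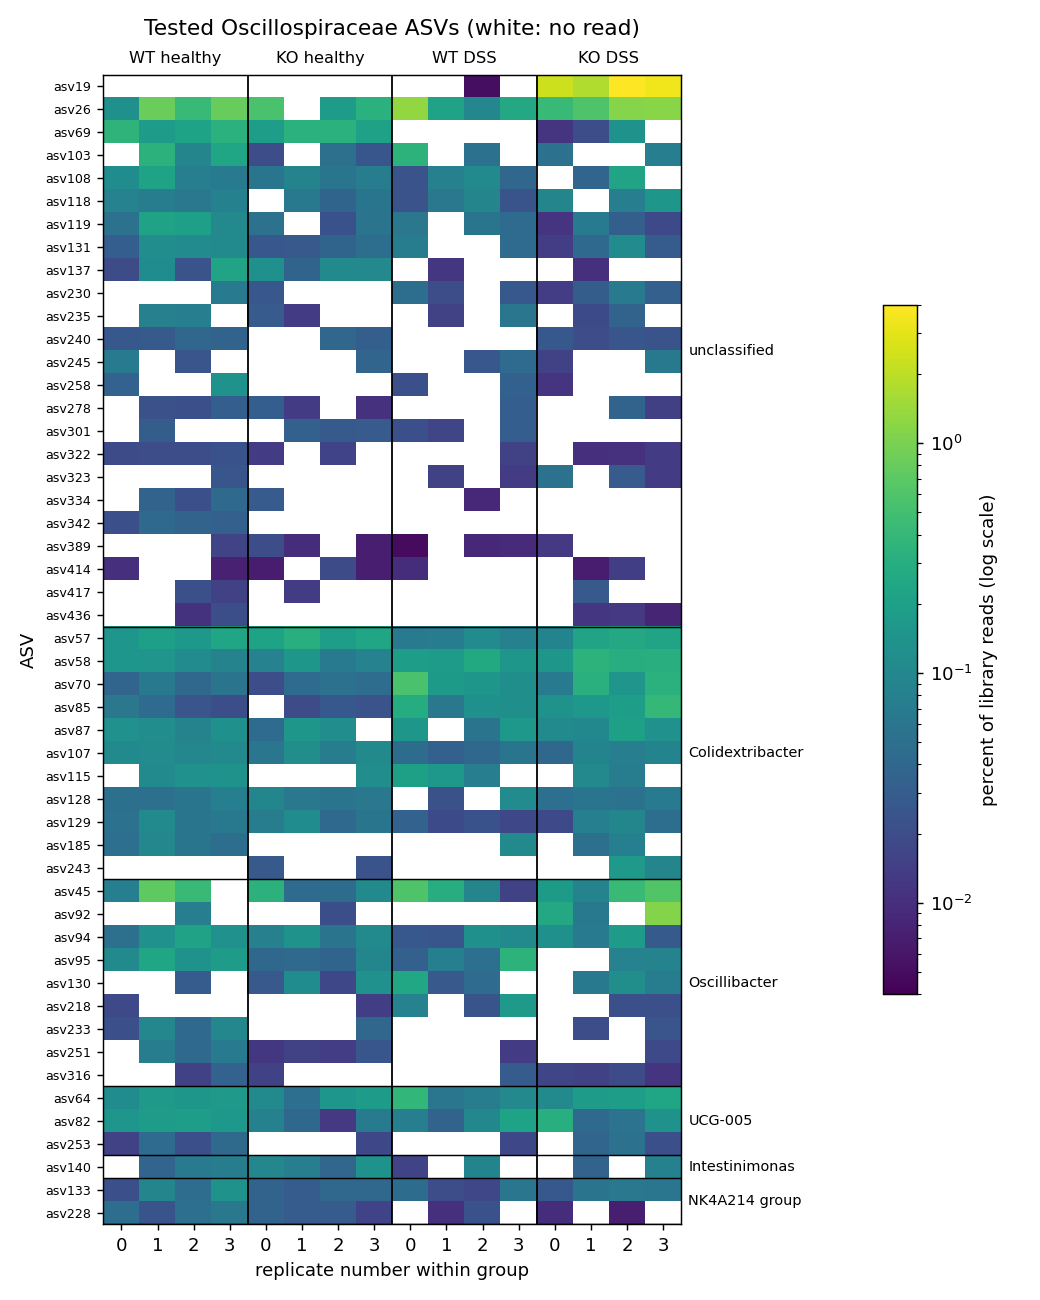
Percent of library reads (colour, log scale; white means no read) of the 50 tested Oscillospiraceae ASVs, in rows grouped by genus label, in the 16 libraries. The row of asv19 is filled in the 4 KO DSS libraries and in 1 WT DSS library, while the 9 members read in every library form unbroken rows.

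In WT mice the clearest loss with DSS was asv69, an unclassified ASV that ranked among the most abundant members. It had 211, 89, 141 and 221 reads in WT healthy and 111, 166, 188 and 116 in KO healthy libraries, no read in any WT DSS library, and 8, 12, 78 and 0 in KO DSS libraries. WT DSS stood below every healthy library, and KO DSS also lay below them but kept reads in 3 of 4 libraries. The WT healthy mean was at least 54.8-fold above WT DSS (adjusted p = 0.00186), and the KO DSS mean was at least 8.72-fold above it (adjusted p = 0.0109). KO DSS replicate 2 held 78 of the 98 KO DSS reads, and without it that bound was 2.15-fold. In KO mice the log2 fold change with DSS was -2.87 ± 1.15 (adjusted p = 0.0735). The interaction was 7.27 ± 1.90 (adjusted p = 0.0468), a fitted value that depends on the prior count, since WT DSS had no read. That call was lost when any library other than KO DSS replicate 3 was left out, with adjusted p from 0.0641 to 0.0862, and the KO minus WT call was lost when only the groups compared were fitted (adjusted p = 0.0791).

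The unclassified asv240 was read in every WT healthy and KO DSS library and in no WT DSS library. Its reads were 16, 14, 25 and 24 in WT healthy, 0, 0, 22 and 18 in KO healthy, and 19, 12, 14 and 14 in KO DSS libraries. WT healthy was at least 6.57-fold (adjusted p = 0.0164) and KO DSS at least 4.84-fold (adjusted p = 0.0206) above WT DSS. The interaction was 7.54 ± 2.11 (adjusted p = 0.0582), so the difference in response between genotypes did not pass for this ASV.

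An Oscillibacter, asv233, followed a similar course at 13, 48, 27 and 65 reads in WT healthy libraries and none in WT DSS. It was read in 1 of 4 KO healthy libraries (22 reads) and in 2 of 4 KO DSS libraries (12 and 15 reads). WT healthy was at least 13.1-fold above WT DSS (adjusted p = 0.0490). This call lay near the threshold and was lost when any 1 of the 8 WT libraries was left out, with adjusted p from 0.0570 to 0.0887.

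The unclassified asv342 was seen only in WT healthy mice, with 13, 21, 23 and 22 reads. Its mean was at least 6.11-fold above KO healthy and at least 6.73-fold above WT DSS. It was past the threshold in both comparisons, but it met the minimum of reads for testing only through the WT healthy libraries, so the calls are no independent support. The first, the only 1 between healthy genotypes, was lost when any of the 8 healthy libraries was left out, the second without WT healthy replicate 2 (adjusted p = 0.0518), and DESeq2 made neither. Another ASV, asv185 of Colidextribacter, singled out after its values were seen, was likewise read in all 4 WT healthy libraries (30, 48, 38 and 32 reads) and in no KO healthy library, without passing (adjusted p = 0.0998).

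Gains with DSS among some Colidextribacter were seen in both genotypes. Of the 11 tested, 5 had a log2 fold change above 0 and 5 below in WT mice, and 7 above and 4 below in KO mice. In asv70 the reads were 23, 32, 26 and 38 in WT healthy, 12, 23, 30 and 26 in KO healthy, 334, 102, 88 and 83 in WT DSS, and 49, 189, 82 and 199 in KO DSS libraries. Every DSS library had a higher share than every healthy library. It rose by 2.79 ± 0.70 on the log2 scale in WT mice (adjusted p = 0.0123) and by 2.47 ± 0.69 in KO mice (adjusted p = 0.0151). The interaction was -0.33 ± 0.93 (adjusted p = 1), which does not show that the responses were alike.

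The second, asv85, had 37, 22, 16 and 14 reads in WT healthy, 0, 10, 15 and 13 in KO healthy, 174, 37, 73 and 82 in WT DSS, and 99, 94, 107 and 243 in KO DSS libraries. It passed in KO mice (3.74 ± 0.99, adjusted p = 0.0120) and not in WT mice (2.33 ± 0.93, adjusted p = 0.0934), and the difference between them was 1.42 ± 1.27 (adjusted p = 0.732). In both genotypes the ranges of the shares with and without DSS did not meet. Among the larger Colidextribacter, asv58 had a log2 fold change of 1.20 ± 0.57 in WT (adjusted p = 0.147) and 1.5 ± 0.58 in KO mice (adjusted p = 0.0590), while asv57 had -0.54 ± 0.53 (adjusted p = 0.520) and -0.25 ± 0.53 (adjusted p = 0.817). The asv58 ranges with and without DSS also did not meet, by a small margin. The highest healthy and lowest DSS shares were 0.152% and 0.155% in WT, and 0.153% and 0.154% in KO mice. The WT DSS libraries had 41 to 64 reads of asv57, fewer than the 91 to 157 of WT healthy libraries. The genus-level share thus summed members whose fitted values had either sign.

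In KO mice 2 unclassified ASVs fell with DSS. The first, asv137, had 74, 19, 60 and 57 reads in KO healthy libraries and 0, 6, 0 and 0 in KO DSS libraries (-4.98 ± 1.79, adjusted p = 0.0483). In WT mice it had 12, 57, 15 and 152 reads without DSS and 0, 7, 0 and 0 with it (-4.01 ± 1.72, adjusted p = 0.111). The second, asv301, had 0, 17, 16 and 16 reads in KO healthy libraries and none in KO DSS, which made KO healthy at least 4.59-fold higher (adjusted p = 0.0474). WT DSS libraries had 13, 10, 0 and 21 reads of it. The call of asv137 was lost without any 1 of the 4 KO healthy libraries or without KO DSS replicate 0, 2 or 3 (adjusted p from 0.0563 to 0.0946). That of asv301 was lost without KO healthy replicate 1, 2 or 3 or any KO DSS library (adjusted p from 0.0705 to 0.0848), and DESeq2 did not make it (adjusted p = 0.0588). With no filter on low reads, the calls of asv19 and the pairwise calls of asv69 were the only ones of these 9 ASVs that were kept.

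**Figure D4:**
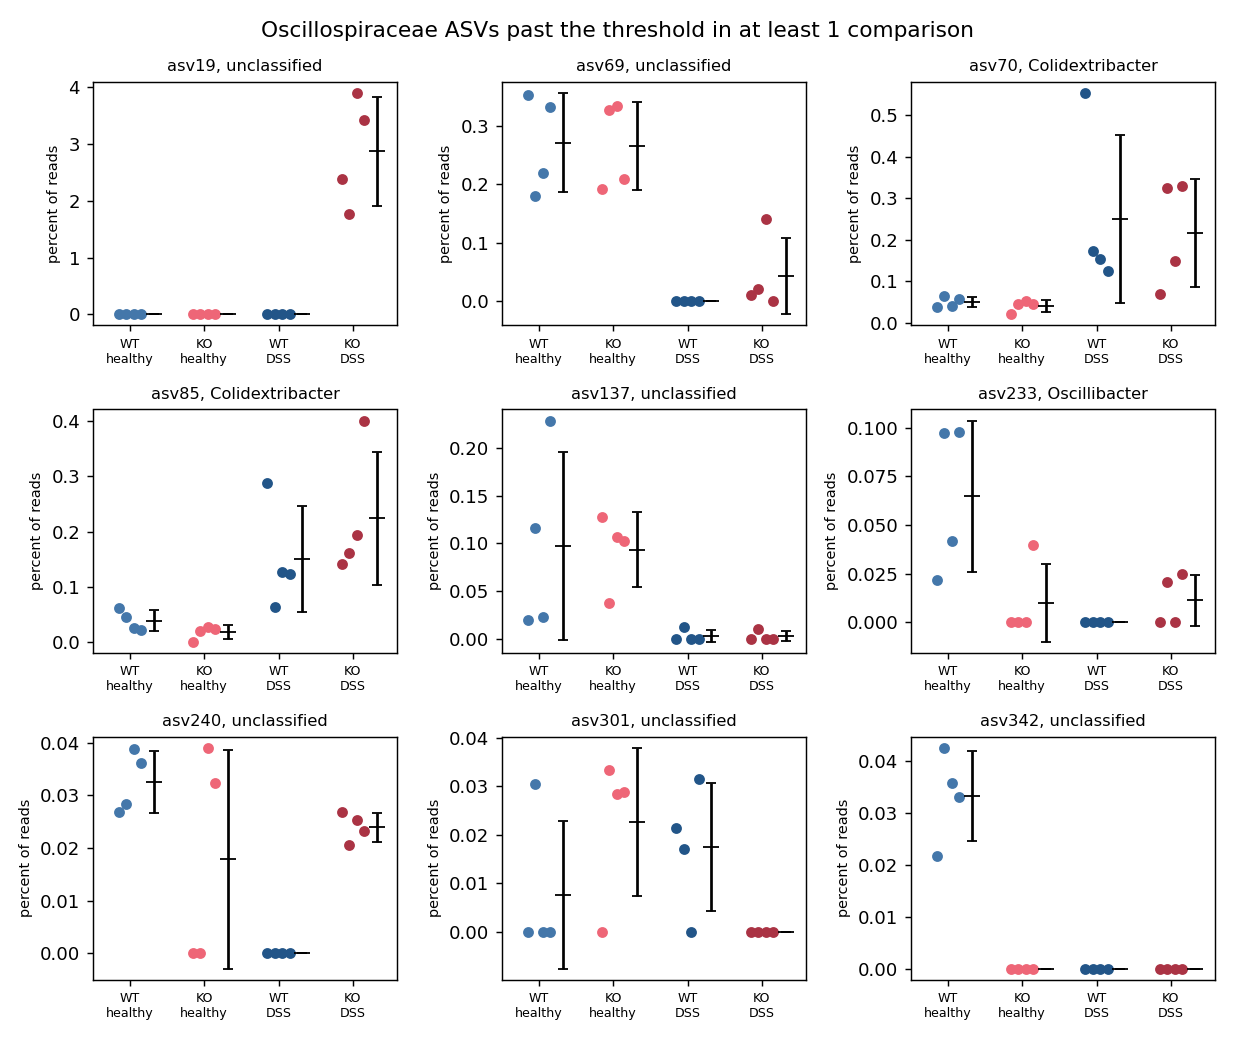
Percent of library reads of the 9 Oscillospiraceae ASVs past the threshold in at least 1 comparison, 1 point per library, with mean ± SD of 4 libraries beside the points; each panel has its own scale. asv19 lies at 1.77% to 3.89% in KO DSS libraries, asv69 is at 0 in all WT DSS libraries, and asv70 and asv85 are higher in DSS than in healthy libraries of both genotypes.

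The remaining abundant members overlapped between groups and passed in no comparison. The unclassified asv26, second by reads, took 0.127% to 0.830% in WT healthy, 0% to 0.551% in KO healthy, 0.0991% to 1.30% in WT DSS and 0.417% to 1.17% in KO DSS libraries. Its log2 fold change was largest for DSS minus healthy in KO mice (1.66 ± 1.12, adjusted p = 0.302). The Oscillibacter asv45 ranged from 0% to 0.727% within the WT healthy libraries alone, and its largest pairwise log2 fold change was 1.24 ± 1.34 (adjusted p = 0.601). UCG-005 asv64 was read in all libraries and had pairwise log2 fold changes from -0.03 to 0.63, none of which passed.

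Members per library were most numerous in healthy WT mice. WT healthy libraries held 35, 46, 49 and 55 members, KO healthy 35, 29, 33 and 36, WT DSS 33, 25, 28 and 35, and KO DSS 31, 39, 41 and 41. At the lowest library depth of 49253 reads the expected numbers were 46.2 ± 8.38, 33.2 ± 3.10, 30.2 ± 4.57 and 38.0 ± 4.76 (n = 4 each). This depth counts all reads and not those of the family, whose share also differed between groups. Over the whole table, libraries held 207 to 280 ASVs in WT healthy, 217 to 260 in KO healthy and 199 to 210 in KO DSS. WT DSS libraries held 172 to 191, and 844 in replicate 1. The WT DSS and WT healthy libraries met at 35 members, and the other pairs of groups overlapped. Adding up libraries, WT healthy mice held 71 members, KO healthy 48, WT DSS 50 and KO DSS 57. A core of 36 members, with 69.2% of the family's reads, was seen in all 4 groups.

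Between healthy genotypes, 25 members were seen only in WT and 2 only in KO libraries, against 90 and 97 of the ASVs outside the family. Of the 48 members seen in KO healthy libraries, 46 (95.8%) were also seen in WT healthy libraries, of whose 71 they were 64.8%. The 25 seen only on the WT side carried 10.4% of its family reads, and 13 of them were in at least 2 libraries. They were 35.2% of the WT healthy members, where 29.4% of the other ASVs of WT healthy libraries were unseen in KO healthy; the 2 were 4.17% of the KO healthy members, against 31.0% of the other ASVs. This difference was not tested. The 2 seen only on the KO side, asv243 and asv524, carried 0.996%. By label, WT against KO healthy libraries held 34 against 21 unclassified members, 16 against 10 Oscillibacter and 14 against 11 Colidextribacter. With presence set at 2 or more libraries of a group, 30 members were shared.

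With DSS, fewer members were seen in WT mice and more in KO mice. In WT mice 26 of 71 members were no longer seen and 5 were newly seen, leaving 45 shared (90.0% of WT DSS and 63.4% of WT healthy members). The 26 had carried 17.3% of the WT healthy family reads, and the 4 of them read in all WT healthy libraries were asv69, asv233, asv240 and asv342. Losses were 36.6% of the WT healthy members and 46.1% of the other ASVs, and gains 10% of the WT DSS members and 82.5% of the other ASVs (10.2% and 29.1% without WT DSS replicate 1). Of the 26, 8 were also seen in KO healthy and 10 in KO DSS libraries. In KO mice 15 were newly seen and 6 no longer seen, with 42 shared (73.7% of KO DSS and 87.5% of KO healthy members). The 15 carried 43.9% of the KO DSS family reads, most of them asv19, the only 1 of the 15 read in all 4 KO DSS libraries. Gains were 26.3% of the KO DSS members and 40.9% of the other ASVs, and losses 12.5% of the KO healthy members and 48.2% of the other ASVs. Of the 15, 9 were seen in WT healthy and 6 in WT DSS libraries. Without WT DSS replicate 1, 44 members were shared between the WT groups. This difference in turnover between genotypes was not tested.

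Under DSS the genotypes shared 42 members, 73.7% of the 57 in KO and 84.0% of the 50 in WT libraries. The 15 seen only in KO DSS carried 9.28% of its family reads, and 1 of them, asv240, was in all 4 libraries. They were 26.3% of the KO DSS members, against 45.6% of the other ASVs of KO DSS libraries. The 8 seen only in WT DSS carried 6.39% of its family reads, asv172 of Intestinimonas and asv301 being the 2 in more than 1 library. They were 16% of the WT DSS members, against 84.2% of the other ASVs (16.3% and 36.1% without WT DSS replicate 1). On both sides the share was lower among the members, a difference that was not tested. Over the 4 groups together, 13 members were seen only in WT healthy, 1 only in KO healthy, 3 only in WT DSS and 4 only in KO DSS libraries, and these 4 sets held 1.53%, 0.0623%, 0.970% and 0.474% of the family's reads. Such sets were not counted over the other ASVs, so they cannot be read as particular to the family. WT healthy libraries also held the most members in all, 71.

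Composition within the family differed most where KO DSS was involved. There asv19 was 35% to 49.3% of the family reads, against at most 0.266% in any other library. The mean Bray-Curtis distance between libraries, on shares of family reads (0 for equal, 1 for nothing shared), was 0.636 between KO DSS and KO healthy and 0.603 between KO DSS and WT DSS. It was 0.506 between WT DSS and WT healthy, and 0.411 between KO and WT healthy. Within groups it was 0.352 in WT healthy, 0.349 in KO healthy, 0.481 in WT DSS and 0.258 in KO DSS. The WT pair with and without DSS was thus little farther apart than WT DSS libraries were from each other, but farther than WT healthy libraries were (0.352). By presence, among ASVs read in at least 2 libraries, the members shared between groups were 68.7% of those seen in either group for healthy KO and WT, 70% for KO and WT with DSS, 66.2% for WT with and without DSS and 70% for KO with and without DSS. The same shares over all ASVs of the table were 66.3%, 57.7%, 56.1% and 52.2%. These distances and shares are descriptions without a test. The distances were not computed without asv19, whose share of the family reads enters every distance between KO DSS and another group.

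The family was last set against its relatives. Other family labels of the order Oscillospirales with reads were Ruminococcaceae, which includes fibre degraders, the Eubacterium coprostanoligenes group, named for a bacterium that reduces cholesterol to coprostanol, Butyricicoccaceae, which includes butyrate producers, UCG-010, and 1 unclassified ASV with 7 reads. Of the 5 family labels of the order that were tested, Ruminococcaceae passed for KO minus WT in healthy mice (-1.25 ± 0.38, adjusted p = 0.0359), for DSS minus healthy in KO mice (2.25 ± 0.39, adjusted p = 0.000141) and for the interaction (2.28 ± 0.54, adjusted p = 0.00778). The coprostanoligenes group passed for DSS minus healthy in WT mice (3.57 ± 1.17, adjusted p = 0.0261) and, downward, for KO minus WT with DSS (-4.35 ± 1.21, adjusted p = 0.0345). Butyricicoccaceae and UCG-010 passed in none of the 5.

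Ratios of Oscillospiraceae to related families do not depend on library totals. The ratio to Ruminococcaceae was 0.558, 1.17, 1.28 and 1.83 in WT healthy, 3.14, 2.85, 2.71 and 1.68 in KO healthy, 1.91, 0.558, 0.521 and 0.905 in WT DSS, and 0.967, 1.17, 1.03 and 1.28 in KO DSS libraries. KO healthy libraries were high and KO DSS libraries close to 1, with no overlap between them. The log2 ratio in KO mice was 1.19 lower with DSS (difference -1.19, exact permutation p = 0.0286, adjusted over 8 ratio tests p = 0.114). In healthy mice KO minus WT was 1.18 (exact permutation p = 0.0571, adjusted p = 0.152). The same ratio differed by 0.40 between genotypes with DSS (exact permutation p = 0.343, adjusted p = 0.486) and by -0.40 between WT groups (exact permutation p = 0.486, adjusted p = 0.486). Without asv19 the KO difference with DSS was -1.96 (exact permutation p = 0.0286, adjusted p = 0.114), and the genotype difference with DSS turned to -0.37.

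Against Lachnospiraceae, the other large Clostridia family, the ratio was 0.256, 0.324, 0.214 and 0.217 in WT healthy, 0.204, 0.170, 0.144 and 0.142 in KO healthy, 0.457, 0.247, 0.213 and 0.352 in WT DSS, and 0.414, 0.165, 0.634 and 0.659 in KO DSS libraries. All KO healthy libraries lay below all WT healthy libraries, with a log2 difference of -0.61 (exact permutation p = 0.0286, adjusted p = 0.114). In KO mice the difference with DSS was 1.33 (exact permutation p = 0.0857, adjusted p = 0.171). KO DSS replicate 1, where Lachnospiraceae took 30.7% of the reads against 11.7% to 14.3% in the other KO DSS libraries, was the exception among them. None of the 8 ratio tests passed after adjustment.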

How the data were processed

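Per the labels, stool DNA (DNeasy PowerSoil Pro) was amplified with primers 341F and 805R and sequenced on a MiSeq. Among tools, cutadapt is listed in the submitters' processing notes; the denoiser and the taxonomy database are not given in the sources used here. The authors deposited a table of read counts per sequence, not normalized, and a taxonomy table whose confidence per assignment is a fraction. Shares are percent of all reads of a library. Reads were also summed by family and by genus label. A feature was tested if 4 or more libraries held 5 or more reads of it, using edgeR 4.0.16 (quasi-likelihood, TMM factors, library totals over tested features, 1 fit of all 16 libraries, Benjamini-Hochberg adjusted p under 0.05) in R 4.3.3. Standard errors are the log2 fold change over the root of F. Shares (log2 of percent plus 0.01) and ratios had two-sided exact permutation tests over 70 relabellings (scipy 1.17.1). The fits were first tested on simulated counts with known changes. Only finite changes were planted, so this does not cover sequences unread in a whole group. Bounds on folds divide a group's mean share by that of 3 reads in each library of the unread group.

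ASVs are named if they passed and were read in 3 or 4 libraries of the group where they were higher (at most 6 in each direction of a comparison), or had 1 of the 8 highest mean shares. Members, lists and tests were chosen with earlier results of these data known. Deviations of same-numbered libraries from their group means correlated at -0.18 to 0.09. This cannot decide whether the numbers mark the same mouse, since a mouse's own profile may not persist between samples. Alternatives were other scalings, DESeq2 1.42.0, limma 3.58.1 on centred log-ratios, other filters, fewer groups, a replicate block, ASVs of 1 library left out, and each library left out in turn. Leaving out asv19 and totals over all reads were added after the data had been seen.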

Additional observations from a re-analysis of the deposited data

Results flagged for a closer look

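Among the 88 group tests of genus labels and named ASVs, 12 had 1 library far from the other 3 by Dixon's criterion. Its usual rate of 1 in 20 does not apply here. A sequence read in 1 library of a group is flagged whatever its reads, and a group without reads never is. WT DSS replicate 0 was the high library in 4 of them. It held 1.30% asv26 (next 0.262%), 0.385% asv64 (next 0.104%), 0.552% asv70 (next 0.174%) and 1.98% unclassified Oscillospiraceae (next 0.690%). KO DSS replicate 0 was low for Colidextribacter, at 0.669% against 1.54% in the next library. In KO DSS, replicate 2 was high for asv69 (0.141%, next 0.0206%).

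The others were sequences read in 1 library of a group, or in all but 1. WT DSS replicate 2 held 0.00521% asv19, from 3 reads. asv137 was read at 0.0119% in WT DSS replicate 1 and at 0.0103% in KO DSS replicate 1, and in no other DSS library. KO healthy replicate 3 was the only KO healthy library with asv233 (0.0396%), and WT healthy replicate 1 the only WT healthy library with asv301 (0.0305%). KO healthy replicate 0 had 0 reads of asv301, against at least 0.0284% in the other KO healthy libraries.

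The response to DSS differed between genotypes by 2.67 on the log2 scale for unclassified Oscillospiraceae and by 7.27 for asv69, each past the threshold of the edgeR interaction test. Both depended on single libraries, and the first also on asv19, as given with the results.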

How the results depend on the processing

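Shares, numbers of ASVs per library and the remaining ratios kept their direction under each of their 11 alternatives. Exceptions follow, and their cause was not tested unless stated. Without asv19, the difference between KO and WT with DSS in the log2 ratio turned to -0.37 against Ruminococcaceae and to -0.33 against Lachnospiraceae. With presence set at 2 or more libraries, fewer ASVs were shared between groups by construction: 30 between healthy genotypes and 26 between WT with and without DSS.

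In the family fit, limma on centred log-ratios turned KO minus WT in healthy mice to 0.055. With DSS, KO minus WT no longer passed with total counts (1.19), limma (1.29), no filter (1.35), a minimum of 20 reads (1.06), a fit of the DSS groups alone (1.24), ASVs of 1 library left out (1.40) or without asv19 (0.44), and leaving out 1 library gave 0.92 to 1.5. DSS minus healthy in KO mice no longer passed with TMMwsp (0.90), RLE factors (0.91), limma (0.56), no filter (1.28), a minimum of 20 reads (0.79), a fit of the KO groups alone (0.87) or without asv19 (0.37), and leaving out 1 library gave 0.79 to 1.57. The interaction passed with total counts (2.00) and DESeq2 (1.52), and leaving out 1 library gave 1.10 to 2.25.

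Of the genus labels, unclassified Oscillospiraceae was no longer called without asv19, giving 0 labels in each comparison. For KO minus WT with DSS, leaving out 1 library gave 0 to 1 labels. For DSS minus healthy in WT mice, total counts gave 1. For the interaction TMMwsp and no filter gave 0, and leaving out 1 library 0 to 1.

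Counts of ASVs past the threshold moved as follows. For KO minus WT in healthy mice limma gave 3, only the groups compared 2, no filter 0, a filter of 20 reads 0 and each left-out library 0. For KO minus WT with DSS no filter gave 5. For DSS minus healthy in WT mice limma gave 10, no filter 3 and a filter of 20 reads 3. For DSS minus healthy in KO mice limma gave 10, no filter 3, and leaving out 1 library 3 to 4. For the interaction TMMwsp gave 0, total counts 2, DESeq2 4, limma 6, no filter 2, and leaving out 1 library 0 to 1. Over all ASVs the interaction calls were 10 higher and 7 lower with TMM and 1 higher and 3 lower with TMMwsp.

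The replicate number was also used as a block, though whether it marks the same mouse is not stated. With this block the family fit gave 1.30 for KO minus WT with DSS (adjusted p = 0.0641) and 1.0 for DSS minus healthy in KO mice (adjusted p = 0.0983). Neither call was kept. The replicate block gave 0 genus labels for KO minus WT with DSS and 0 for the interaction. It gave 0 ASVs between healthy genotypes, 1 for DSS minus healthy in WT mice, 2 for DSS minus healthy in KO mice and 0 for the interaction. In 1 of 16 same-numbered pairs of libraries across groups, the best match was the library's own number.

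Precision was limited by the 4 libraries a group, whose spread exceeded counting error, and depth set the bounds of sequences unread in a group.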
